A study of Drosophila melanogaster with 20 samples.

Results

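A set of 55 among 15473 transcripts read dim in larval wings of Drosophila melanogaster, read bright in wings 24 h after pupa formation, and differed little between wings that expressed activated Thickveins and their controls. Wings were profiled on 20 single-colour NimbleGen arrays labelled with Cy3, each carrying total RNA of 10 dissected wings, in 4 groups of 5. Tkv 24 and control 24 wings came from pupae staged from white prepupae. Tkv L3 and control L3 wings came from wandering larvae of the third instar. In both Tkv groups a UAS transgene for activated Thickveins was switched on through Gal4. The controls came from the matched strain that lacked the UAS transgene. Flies of all groups were raised at 18 °C and moved to 28 °C for 10 h before dissection, so the temperature shift was shared by the controls. The labels name no Gal4 driver, so the region of the wing that held the transgene is unknown here.

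The 55 transcripts were chosen on these same arrays. Log2 intensities were quantile-normalized over all arrays, which gives every array the same distribution of values. A transcript had to lie at or below 7 on all 5 control L3 arrays and at or above 9 on all 5 control 24 arrays. The mean of the Tkv arrays had to differ from the mean of the control arrays by less than 0.6, in either direction, at L3 and at 24 h. The rule therefore used all groups. Stage changes and Tkv differences of the 55 are given below as descriptions of the chosen transcripts, and no test is drawn from them.

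Thickveins is a type I receptor for Decapentaplegic, a ligand of the bone morphogenetic protein family. The activated form signals through the transcription factor Mad without the ligand. In the larval wing disc this pathway patterns the wing along its anterior-posterior axis and promotes growth, and in the pupal wing it takes part in vein formation. Between the wandering larva and the pupa the hormone ecdysone drives the disc to evert, the epithelial layers to meet, and the wing cells to turn from proliferation to differentiation.

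The deposited files identify transcripts by FlyBase transcript ID and do not pair them with genes. None of the 55 IDs was found in the RefSeq gene table (Release 6), which held 44 of the 15473. A single gene symbol was available for 17 transcripts of the array, none of them among the 55. Of 14 lists of pathway genes and cell type markers, 1 had a named transcript, LanA, a laminin chain, and it was not in the set. The tissue label, the tkv transcript and the markers of other cell types could therefore not be checked. The set is described by its values, with the extremes of each comparison given by ID. In RNA of whole wings, fewer cells of a type and less RNA per cell cannot be told apart. The transgene cannot be told apart from whatever else distinguished the strains.

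In control wings 5188 transcripts lay at or below 7 on all L3 arrays and 7723 at or above 9 on all arrays at 24 h. Only 68 met both limits, and 55 of these (80.9%) also kept within 0.6 of the controls in Tkv wings at both stages. Among all transcripts 13975 (90.3%) kept within 0.6 at both stages. The opposite change, at or above 9 on all control L3 arrays and at or below 7 on all control 24 arrays, was met by 20 transcripts, of which 17 (85.0%) kept within 0.6. These shares were not tested against each other. The highest larval control value of a chosen transcript was 6.970, and the nearest transcript that missed only this limit reached 7.003 on 1 array. The lowest pupal control value inside was 9.01, and the nearest outside was 8.90. The largest absolute Tkv difference at 24 h was 0.597 inside, against 0.672 for the nearest transcript outside. At L3 the largest was 0.59, and no transcript missed the L3 limit alone.

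In pupal wings the median over the 55 transcripts was 10.28, 10.39, 10.29, 9.92 and 10.27 on Tkv 24 arrays 1 to 5, against 10.27, 10.08, 10.46, 10.40 and 10.53 on control 24 arrays 1 to 5 (normalized log2 intensity). In larval wings it was 5.64, 5.48, 5.62, 5.59 and 5.74 on the Tkv L3 arrays, against 5.30, 5.65, 5.92, 5.69 and 5.47 on the control L3 arrays. Every pupal median thus lay far above every larval one, and the medians of Tkv and control arrays overlapped at both stages. The rule largely sets both features. As a whole the set spanned 8.52 to 13.40 on the Tkv 24 arrays and 9.01 to 13.60 on the control 24 arrays. It spanned 3.93 to 7.39 on the Tkv L3 arrays and 3.77 to 6.97 on the control L3 arrays.

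**Figure D1:**
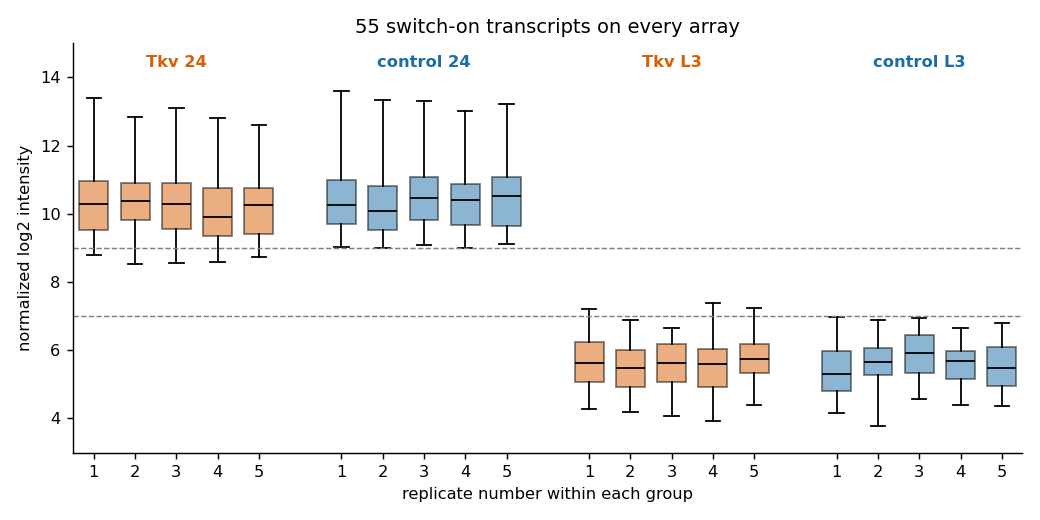
Normalized log2 intensity (vertical axis) of the 55 transcripts on each of the 20 arrays (horizontal axis, replicate number within group). Boxes span the quartiles with the median as a line, whiskers reach the lowest and highest transcript, and dashed lines mark 7 and 9. The boxes of Tkv and control arrays cover similar ranges at each stage, which the rule largely sets. Some Tkv whiskers cross the limits that the rule set for control arrays only.

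The limits of 7 and 9 were not asked of single Tkv arrays. In Tkv wings 45 of the 55 transcripts lay at or above 9 on all 5 pupal arrays, 52 lay at or below 7 on all 5 larval arrays, and 42 did both. Of the 10 that missed the pupal limit, 5 were below 9 on a single Tkv 24 array and 5 on more than 1. Between 49 and 53 of the 55 reached 9 on any given Tkv 24 array. The lowest pupal Tkv value was 8.52 and the highest larval Tkv value 7.39, so no value of the set in larval Tkv wings came up to any value of the set in pupal Tkv wings. For each of the 55 transcripts the 5 Tkv 24 arrays lay above the 5 Tkv L3 arrays, as they did for 13.7% of all transcripts. The limits on control arrays and on Tkv minus control left this order little room to fail, so it is no finding. The gap between the lowest pupal and the highest larval array was 1.83 to 6.42 in Tkv wings (median 3.57) and 2.05 to 6.44 in control wings (median 3.67). In control wings, where the rule fixed this order for the chosen transcripts, it held for 15.8% of all transcripts.

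The rise between stages had a median of 4.56 on the log2 scale in Tkv wings (23.6-fold) and 4.69 in control wings (25.8-fold). Over all transcripts the median stage change was -0.04 in both genotypes. Larval values carried no detection call and RMA can compress differences at low signal, so these are folds of normalized intensity. The smallest and largest rises were 2.69 and 7.63 in Tkv wings (6.45-fold and 198-fold) and 2.71 and 7.76 in control wings (6.53-fold and 217-fold). The standard error of a single rise was 0.16 to 0.41 with a median of 0.24, from a limma fit over all 20 arrays. Rises of 16-fold to 32-fold were the most frequent, with 20 transcripts in Tkv wings and 22 in control wings. At least 64-fold rises were seen for 7 in either genotype, and at least 128-fold rises for 3 in Tkv wings and 4 in control wings. All 55 passed the limma test for a rise in Tkv wings, against 18.9% of all transcripts, and all 55 passed it in control wings, against 19.7%. The rule fixed the control rise and, through the limits on Tkv minus control, a Tkv rise above 0, so neither count is a finding. Nothing is read from the smaller median rise in Tkv wings, because the limits on intensity were asked of control arrays only.

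Set against the same transcript's control rise, the rise in Tkv wings was 76.7 to 132% of it on the log2 scale, with a median of 97.1%. It was smaller than in control wings for 36 transcripts (65.5%) and larger for 19. Among all transcripts the stage change was lower in Tkv wings for 49.2%. The limits on larval and pupal intensity were asked of control arrays and not of Tkv arrays. That alone favours a larger control rise in the set, so nothing is read from this lean or from the median of 97.1%. On single slides, each of which held 1 array of every group, all 55 were higher in the pupal than in the larval array in both genotypes. On a single slide this held for 32.1 to 35.1% of all transcripts. For the 55 it follows from the limits in control wings and from the gap between Tkv arrays given above, so it is no further finding. The slide differences of single transcripts ran from 2.25 to 9.12 in Tkv wings and from 2.14 to 8.61 in control wings.

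**Figure D2:**
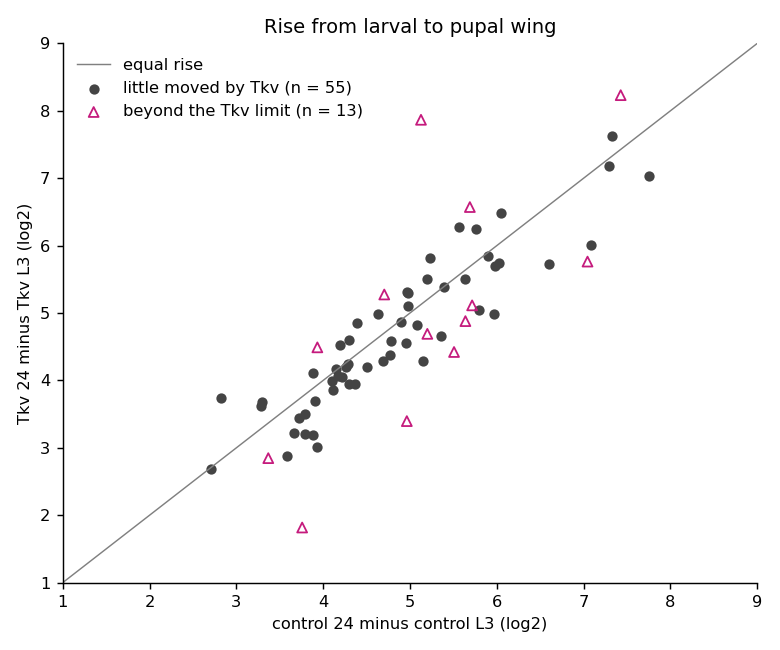
Rise from larval to pupal wings in Tkv (vertical axis) and control wings (horizontal axis), both as log2 differences of group means. Filled points are the 55 transcripts and open triangles the 13 that met the control limits but differed by 0.6 or more between Tkv and control wings. The grey line marks equal rises, and the filled points lie along it between 2.69 and 7.76, held near it by the limits of 0.6.

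FBtr0085403 had the largest control rise. It read 12.78, 12.74, 13.10, 12.78 and 12.25 on the Tkv 24 arrays, against 13.60, 13.33, 12.87, 12.83 and 13.21 on the control 24 arrays. Its larval values were 6.03, 5.69, 5.86, 5.23 and 5.69 on the Tkv L3 arrays, against 5.01, 5.05, 6.40, 5.73 and 4.85 on the control L3 arrays. Tkv and control wings overlapped at both stages, while no pupal value came near a larval one. The rise was 7.03 ± 0.25 in Tkv wings and 7.76 ± 0.25 in control wings (log2 ± SE, n = 5 a group). As deposited, before the added quantile normalization, its intensity was between 4777 and 8729 on the Tkv 24 arrays, between 7106 and 12827 on the control 24 arrays, at most 66 on the Tkv L3 arrays, and at most 81 on the control L3 arrays.

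FBtr0075468 had the next largest control rise and the largest in Tkv wings. It read 13.40, 12.56, 12.35, 12.10 and 11.77 on the Tkv 24 arrays, against 11.64, 11.95, 12.06, 13.02 and 12.72 on the control 24 arrays. In larval wings it read 4.28, 4.86, 4.84, 4.71 and 5.35 with Tkv, against 4.70, 5.32, 5.96, 4.40 and 4.38 in controls. The pupal arrays of each genotype spread over more than 1 log2 unit and overlapped widely. Its rise was 7.63 ± 0.34 in Tkv wings and 7.33 ± 0.34 in control wings.

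**Figure D3:**
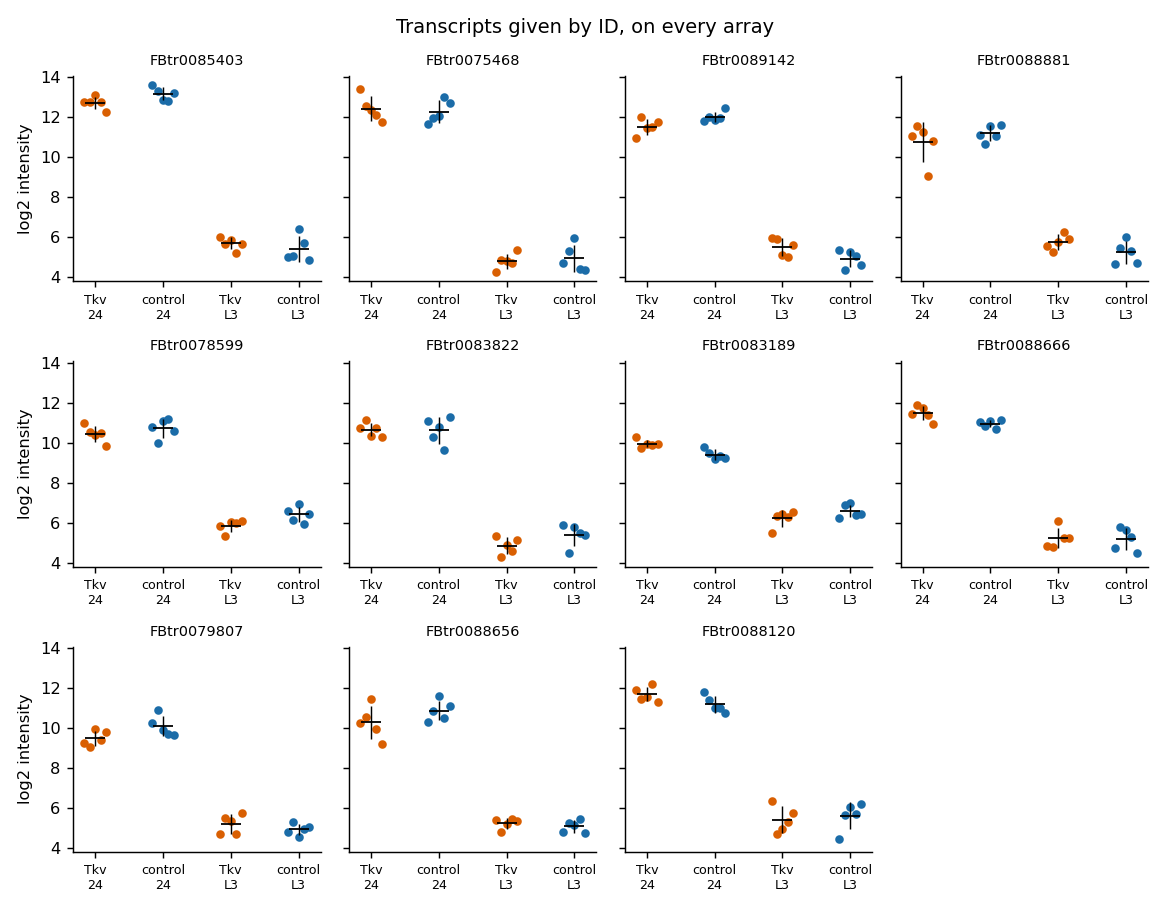
Normalized log2 intensity (vertical axis) of the 11 transcripts given by ID on every array, Tkv in orange and control in blue, with the mean and SD of each group of 5 as a bar. In each panel the pupal points lie well above the larval points, and differences between Tkv and control points are small beside that distance.

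At 24 h the Tkv minus control difference of the 55 transcripts ran from -0.60 to 0.55 with a median of -0.20, against a median of 0.00 over all transcripts. It was below 0 for 37 transcripts (67.3%) and above 0 for 18, and 50.7% of all transcripts were below 0. The limit of 9 was asked of control 24 arrays and not of Tkv 24 arrays. That alone favours differences below 0 in the set, so nothing is read from this lean. In limma's test of Tkv against control at 24 h none of the 55 passed, where 3.16% of all transcripts did. Of the 55, 9 (16.4%) reached an unadjusted p under 0.05, against 13.3% of all transcripts. The limit of 0.6 removed the larger differences, so nothing is read from that count. For 3 of the 55 the Tkv 24 and control 24 arrays did not overlap, against 4.46% of all transcripts. The Tkv arrays were all lower in 2 of the 3, against 2.22% of all transcripts, and all higher in 1, against 2.24%.

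FBtr0083189 had the highest Tkv difference at 24 h. It read 10.26, 9.73, 9.95, 9.87 and 9.95 on the Tkv 24 arrays, against 9.80, 9.499, 9.16, 9.35 and 9.21 on the control 24 arrays, a difference of 0.55 ± 0.19 (SE). The lowest Tkv 24 array lay just under the highest control 24 array. FBtr0088666 came next, with 11.43, 11.88, 11.75, 11.39 and 10.93 on the Tkv 24 arrays, against 11.03, 10.81, 11.10, 10.69 and 11.13 on the control 24 arrays, a difference of 0.52 ± 0.26. Replicate 5 of Tkv was within the range of its controls and the other Tkv arrays were above it.

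At the other end, FBtr0079807 read 9.27, 9.05, 9.94, 9.37 and 9.77 on the Tkv 24 arrays, against 10.24, 10.89, 9.89, 9.72 and 9.66 on the control 24 arrays, a difference of -0.60 ± 0.25. FBtr0088656 read 10.26, 10.55, 11.46, 9.92 and 9.21 on the Tkv 24 arrays, against 10.31, 10.84, 11.57, 10.51 and 11.08 on the control 24 arrays, a difference of -0.59 ± 0.31. In both cases the Tkv and control arrays overlapped, and 1 slide carried much of the difference. Without replicate 2, whose control 24 array was the highest, that of FBtr0079807 was -0.29, and without replicate 5 that of FBtr0088656 was -0.27. For FBtr0088656 the Tkv array was the lower of the pair on all 5 slides, by little on most and by the most on slide 5.

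In larval wings the Tkv minus control difference ran from -0.56 to 0.59 with a median of 0.00, against -0.01 over all transcripts. It was above 0 for 27 transcripts and below 0 for 28. No transcript of the set passed the limma test there, against 1.40% of all transcripts, while 5 of the set (9.09%) reached an unadjusted p under 0.05, against 9.75% of all. In none of the 55 were the Tkv L3 and control L3 arrays without overlap, against 3.35% of all transcripts. The limit of 0.6 applied here too.

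The highest larval differences belonged to FBtr0089142 and FBtr0088881. FBtr0089142 read 5.98, 5.92, 5.10, 5.02 and 5.61 on the Tkv L3 arrays, against 5.35, 4.37, 5.27, 5.08 and 4.61 on the control L3 arrays (difference 0.59 ± 0.23, SE, and 0.35 without replicate 2). FBtr0088881 averaged 5.77 ± 0.38 on the Tkv L3 arrays and 5.25 ± 0.56 on the control L3 arrays (SD, n = 5 each). The lowest belonged to FBtr0078599, with 5.85 ± 0.29 on the Tkv L3 arrays and 6.41 ± 0.39 on the control L3 arrays, and to FBtr0083822, with 4.84 ± 0.43 on the Tkv L3 arrays and 5.39 ± 0.54 on the control L3 arrays. All 4 had overlapping groups at L3 and lay among the dim values, where no detection call was used. Background correction can compress differences at low signal, and whether it did so here was not tested.

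**Figure D4:**
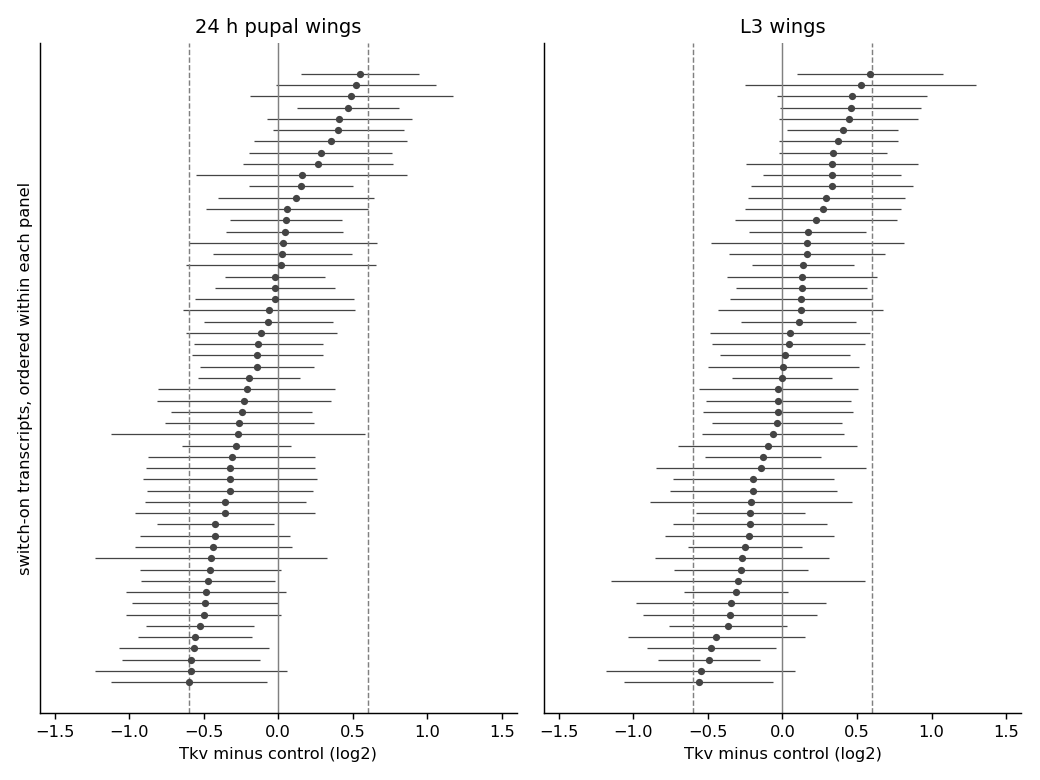
Tkv minus control difference (log2, horizontal axis) of each of the 55 transcripts in pupal (left) and larval wings (right), ordered within each panel, with 95% confidence intervals from limma. Dashed lines mark the limit of 0.6 in either direction. All points lie between the dashed lines by the rule, and most intervals cross one of them.

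Little movement is a statement about means of 5 arrays. The median half-width of the 95% confidence interval was 0.50, close to the limit itself. At 24 h the interval lay wholly within 0.6 of 0 for 12 of the 55 transcripts and within 1 (2-fold) for 45. At L3 these numbers were 16 and 49. The intervals were centred on the same means that the rule limited, and were not adjusted for that choice or for the number of transcripts. Shares over all transcripts were not determined. These counts therefore describe precision, and a true difference beyond the limit is not excluded for any of the 55.

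The larval and pupal Tkv differences share no arrays. In 20 transcripts Tkv was lower at both stages and in 10 higher at both. Another 17 were higher at L3 and lower at 24 h, and 8 were lower at L3 and higher at 24 h. Shares of these patterns over all transcripts were not determined, so nothing is read from the counts. The difference between the stages' Tkv differences (24 h minus L3, the interaction) ran from -1.08 to 0.92 with a median of -0.13, against 0.01 over all transcripts. None passed the limma interaction test, against 0.679% of all transcripts, while 6 of the set (10.9%) reached an unadjusted p under 0.05, against 7.79% of all. The rule kept each of the contributing differences small. Its limits on the intensity of control arrays alone favour an interaction below 0 in the set, so nothing is read from the median.

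FBtr0089142 had the lowest interaction, -1.08 ± 0.33 (SE). Its larval excess in Tkv wings, given above, stood against pupal values of 10.94, 12.01, 11.46, 11.49 and 11.74 on the Tkv 24 arrays and 11.80, 12.00, 11.89, 11.95 and 12.46 on the control 24 arrays. FBtr0088881 followed with -0.98 ± 0.52. It read 11.05, 11.59, 11.26, 9.07 and 10.80 on the Tkv 24 arrays, against 11.10, 10.67, 11.58, 11.05 and 11.64 on the control 24 arrays. Its Tkv 24 replicate 4 was low and the other Tkv 24 arrays were within the control range, and its SD of 0.98 there was the largest of any transcript of the set in any group. Its interaction was -0.49 without replicate 4 and -1.49 without replicate 2.

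The highest interactions were 0.92 ± 0.27 for FBtr0083189 and 0.70 ± 0.46 for FBtr0088120. FBtr0083189 was lower in Tkv L3 wings, at 6.22 ± 0.42, against 6.58 ± 0.32 in control L3 wings (SD, n = 5 each), besides being higher at 24 h. FBtr0088120 averaged 11.67 ± 0.35 on the Tkv 24 arrays and 11.18 ± 0.42 on the control 24 arrays. At L3 it averaged 5.40 ± 0.67 on the Tkv arrays and 5.61 ± 0.68 on the control arrays. For FBtr0088120 the larval spread exceeded the larval difference, and its interaction was 1.33 without replicate 1 and 0.46 without replicate 3.

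Replicates spread more in the dim state than in the bright one. The median SD within a group, over the 55 transcripts, was 0.30 on Tkv 24 and 0.32 on control 24 arrays, and 0.39 on Tkv L3 and 0.42 on control L3 arrays. Over all transcripts the medians were 0.27 on Tkv 24, 0.26 on control 24, 0.26 on Tkv L3 and 0.23 on control L3 arrays. Single SDs in the set ran from 0.07 to 0.98. These spreads were not tested against each other.

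On some arrays most of the set lay on 1 side of the group means. On control L3 replicate 3 the median deviation of the 55 transcripts from their group means was 0.36, and 38 of the 55 lay above the mean. The median over all transcripts there was -0.01. On Tkv 24 replicate 2 the set was high, with a median deviation of 0.24 and 42 of 55 above the mean, and on control 24 replicate 2 it was low, with -0.15 and 15 of 55. All-transcript medians on both arrays were between -0.01 and 0.00. Quantile normalization holds all-transcript medians near 0, so they are no background for a shift of the set. Transcripts of like intensity were not compared. A shift of the set therefore cannot be told apart from a shift of all dim or all bright transcripts on an array. Tkv 24 replicate 2 also had the lowest median correlation with the other arrays of its group over all transcripts, a Pearson r of 0.981, against 0.985 to 0.992 for the other 19 arrays.

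The pupal difference varied between slides. Within slides 1 to 5 the median of Tkv 24 minus control 24 over the set was -0.05, 0.12, -0.23, -0.25 and -0.30, and 29, 21, 41, 41 and 42 of the 55 were lower in the Tkv array. Slide 2 went the other way from the last 3 slides, and slide 1 was near 0. At L3 the slide medians were 0.24, -0.16, -0.29, -0.10 and 0.25, with both signs represented. Over all transcripts no slide median exceeded 0.04 in size at either stage. Without slide 2 the pupal median was -0.28, and without slide 4 it was -0.09. What slides share besides the replicate number was not tested.

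**Figure D5:**
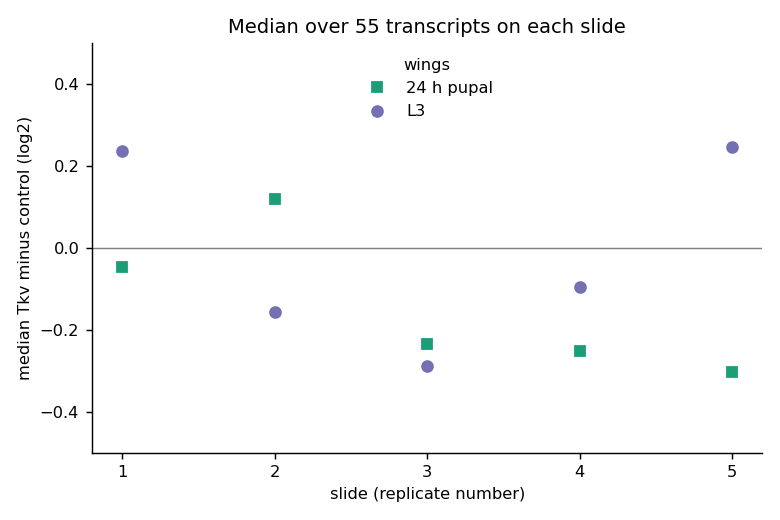
Median Tkv minus control difference over the 55 transcripts (log2, vertical axis) on each of the 5 slides (horizontal axis), squares for pupal and circles for larval wings, with no error bars because each slide holds 1 array a group. Pupal medians lie below 0 on 4 of 5 slides and larval medians on 3 of 5.

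The rule was also applied to 4 slides at a time. The arrays of the remaining slide had entered the quantile normalization, and the limits were set with all slides known, so this describes the slides and is no independent test. It gave 58, 45, 58, 48 and 52 transcripts without replicates 1 to 5, of which 52, 40, 49, 46 and 50 were among the 55. On the slide left out, every one of these transcripts was higher in the pupal than in the larval array, in Tkv and in control wings, as were 32.1 to 35.1% of all transcripts. The median rise there was 4.44 to 4.62 in Tkv wings and 4.29 to 4.70 in control wings, and the smallest Tkv rise on any slide left out was 2.05. All 4 arrays of the slide met the limits of 7 and 9 for 49 of 58, 37 of 45, 43 of 58, 42 of 48 and 46 of 52 transcripts. The share of all transcripts that met these limits on a slide was not determined, so nothing is read from these counts. With replicate 3 left out, 9 of the 58 exceeded 7 on its control L3 array, the array on which the set was high.

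The 13 transcripts that met the control limits but not the Tkv limits show where the boundary fell. All 13 missed it at 24 h, 7 with lower and 6 with higher values in Tkv wings, with differences from -1.17 to 2.59. One of them also missed it at L3, where it was higher in Tkv wings by 4.53. Tkv 24 and control 24 arrays did not overlap for 8 of the 13, against 3 of the 55, a contrast that the rule builds in. Their median control rise was 5.20 and that of the 55 was 4.69. Their Tkv rises were 48.4 to 153% of the control rises, against 76.7 to 132% for the 55.

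Each transcript was read by 3 to 5 probe pairs. In the set 44 transcripts (80.0%) had 5 pairs and 11 had 4, against 65.3% with 5 pairs among all transcripts. The set held 2 pairs of transcripts with consecutive IDs. Within these pairs the values over the 20 arrays correlated at 0.993 and 0.987 (Pearson r), most of which is the stage change that both share. The deviations from group means correlated at 0.299 and 0.150. Whether paired IDs belong to 1 gene or share probes is not given in the files used here. Counting each pair once leaves 53.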

How the data were processed

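RMA, a method that corrects background, normalizes arrays and summarizes probes, made the deposited intensity values, per the submitters' processing notes. They are linear, lie between 12.2 and 62182, and rest on 3 to 5 probe pairs a transcript, per the column the files give. A deposited error column was not used. The log2 values of the deposited series table matched the log2 of these intensities to within 5e-09. Array medians differed by up to 0.40 on the log2 scale, so the 20 arrays were quantile-normalized together, which would hide a shift of all transcripts. No transcript was filtered, and software versions, settings, genome build and detection calls were not stated in the labels or files.

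Groups and replicate numbers came from the sample titles. limma 3.58.1 in R 4.3.3 was fitted with 4 group means over 20 arrays (16 residual degrees of freedom), and a transcript passed at a two-sided Benjamini-Hochberg adjusted p under 0.05 over 15473 transcripts. Descriptions used pandas 2.3.3 and figures matplotlib 3.10.9 in Python 3.11.15. The fit was tried on simulated arrays with independent noise and no slide effect, and the rule on a small made table. No arrays of a group were alike, with a lowest median absolute difference of 0.18. For arrays no depth applies, and their number limits the precision. Samples were described as independently isolated, and p-values measure the spread between them.

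The 55 transcripts, lists and tests were chosen with earlier results of these data known. Up to 2 extremes in each direction per comparison were named by ID. The file names put same-numbered arrays of the 4 groups together on 1 slide, which served as the block among the alternatives. Over the 30 pairs of same-numbered arrays, deviations correlated at -0.186 to 0.287, with 13 above 0.1. Alternatives were other normalizations, the series table, other limits of the rule, slide and array position as blocks, eBayes with trend and robust fitting, the compared groups alone, leaving out the dimmest 25% of transcripts, a threshold of 0.01, and leaving out arrays.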

Additional observations from a re-analysis of the deposited data

Results flagged for a closer look

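In 2 of 48 groups of 5 arrays examined (11 transcripts and the set's median, in 4 groups each), 1 array stood apart from the remaining 4. By chance about 1 group in 20 would hold such an array. FBtr0083189 read 5.49 in Tkv L3 replicate 1, against 6.26 to 6.54 on the other Tkv L3 arrays, and its group mean was 6.22 with that array and 6.40 without it. The median over the 55 transcripts was 9.92 in Tkv 24 replicate 4, against 10.27 to 10.39 on the other Tkv 24 arrays. The median deviation of single transcripts from their group means was -0.08 on that array.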

How the results depend on the processing

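The number of chosen transcripts followed the limits: 24 with limits of 6.5 and 9.5, 104 with 7.5 and 8.5, 105 with 7 and 9 asked of control means only, and 25 with a Tkv limit of 0.4, against 55. It was 45 to 58 without 1 replicate number and 46 to 62 without 1 array, with the extremes at Tkv 24 replicate 2 and control L3 replicate 3. Other normalizations gave 53 to 56. With the 55 held fixed, all 55 passed the stage test in both genotypes under every alternative run. With slide as a fixed or random replicate block, or with array position added, 55 passed for stage in either genotype and 0 for Tkv at L3, for Tkv at 24 h and for the interaction. The pairing changed no call, but the rule itself largely sets these counts, so they say little about an effect of slide. Elsewhere these counts of 0 also held, except that 1 transcript passed at 24 h without replicate 1 (FBtr0083189, log2 0.57, limma adjusted p = 0.0414, against 0.149 with all arrays) and 1 without Tkv 24 replicate 2 (FBtr0089143, named after its values were seen, log2 -0.65, limma adjusted p = 0.0407, against 0.121). Leaving out a replicate number gave median rises of 4.45 to 4.62 in Tkv wings and 4.62 to 4.76 in control wings, and median Tkv differences of -0.28 to -0.09 at 24 h and -0.05 to 0.09 at L3. Of 182 refits of the 14 changes of transcripts given by ID, none changed sign, and 7, all without a replicate number, moved by over 1.5 times (5 changes). Low signal limits the larval values, which lay among the dimmest on the arrays. The interaction needs all 4 groups, so it has no fit of compared groups alone.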
